A study of Mus musculus with 2 samples.

Results

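Six-family, Eya and Dach genes encode a set of nuclear proteins that act together, and 9 of them were described here in cells of whole mouse embryos. They were found by symbol among the 21937 gene features and comprise 3 Six-family genes (Six2, Six4 and Six5), 4 Eya genes (Eya1, Eya2, Eya3 and Eya4) and 2 Dach genes (Dach1 and Dach2). All embryos were at E11.5 and carried an EGFP transgene that had been delivered with the piggyBac transposon, was linked to a DNA barcode and was driven by CAG, a promoter with activity in most tissues. Founder zygotes came from in vitro fertilization of C57BL/6J gametes, were electroporated with mRNA of the transposase mPBase and then received donor DNA by injection. F0_8 and F0_9 were each a founder embryo, F1_1 was 1 embryo of the F1 generation, and F1_mix was a deliberate mixture of cells from 2 further F1 embryos that was counted as 1 sample. The 4 cell suspensions were tagged with separate oligos and pooled into 1 droplet library, so the founders and the F1 generation had 2 suspensions each, no embryo was prepared again, and no group lacked the transgene. Whole embryos without placenta and yolk sac were dissociated, so the place of a cell in the embryo is known only through its genes. Where 4 values of a gene follow each other, the founders F0_8 and F0_9 come first, then F1_1, then F1_mix.

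Six-family proteins bind DNA through a homeodomain and bind Eya proteins through a neighbouring SIX-type domain. Eya proteins do not bind DNA themselves, serve as coactivators of Six-family proteins and also carry a phosphatase domain. Dach proteins belong to the family of the Ski and Sno corepressors and were placed in the same network with the fly genes sine oculis, eyes absent and dachshund, which are all needed for the fly eye. In vertebrates the network is known from muscle, kidney, ear, limb and the sensory placodes, where Pax factors often act upstream and Groucho proteins act as corepressors. Six2 maintains the progenitors of the nephron and is also known from facial mesenchyme. Six4 is known from muscle, and Six5 lies next to Dmpk, the gene of myotonic dystrophy. Eya1 is the gene of branchio-oto-renal syndrome and Eya4 a gene of hereditary hearing loss.

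In the GRCm38.p6 annotation, Six2 spans chr17:85662736-85688254, Six4 chr12:73099609-73114031 and Six5 chr7:19094544-19098549. The Eya genes lie at chr1:14168953-14311035 (Eya1), chr2:165595028-165771727 (Eya2), chr4:132639025-132724765 (Eya3) and chr10:23102962-23350838 (Eya4). Dach1 spans chr14:97786846-98169765 and Dach2 chrX:113297496-113836386. The Six-family genes are 4.01 to 25.5 kb long, the Eya genes 85.7 to 248 kb, Dach1 383 kb and Dach2 539 kb. RefSeq promoter sequences on the same build were matched for 7 of the 9 members, with 10 entries in all, and not for Eya1 and Eya2. Six2, Six4 and Eya4 had higher pooled levels in the mesenchymal and epithelial types than in the nervous system types. The Dach pair had its highest levels in CNS Neuron. The start used in the RefSeq promoter entry lies inside the gene span given above for Six4, Eya4 and Dach2. The 250 bases before that start are shown for Six2, Six4, Eya4 and the Dach pair. They read 5′ to 3′ in the direction of the gene, and capitals mark each CpG.
Six2, chr17:85688255-85688504, minus strand: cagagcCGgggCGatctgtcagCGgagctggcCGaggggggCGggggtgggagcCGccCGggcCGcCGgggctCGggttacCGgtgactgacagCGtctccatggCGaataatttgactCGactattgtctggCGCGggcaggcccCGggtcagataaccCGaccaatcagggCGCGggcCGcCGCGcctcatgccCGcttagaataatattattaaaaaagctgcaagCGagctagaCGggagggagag
Six4, chr12:73113246-73113495, minus strand: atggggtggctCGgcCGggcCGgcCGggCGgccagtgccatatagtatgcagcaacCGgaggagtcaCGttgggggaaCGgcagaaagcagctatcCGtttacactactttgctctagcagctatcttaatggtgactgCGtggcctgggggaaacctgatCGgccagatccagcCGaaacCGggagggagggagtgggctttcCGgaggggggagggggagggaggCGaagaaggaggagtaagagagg
Eya4, chr10:23349944-23350193, minus strand: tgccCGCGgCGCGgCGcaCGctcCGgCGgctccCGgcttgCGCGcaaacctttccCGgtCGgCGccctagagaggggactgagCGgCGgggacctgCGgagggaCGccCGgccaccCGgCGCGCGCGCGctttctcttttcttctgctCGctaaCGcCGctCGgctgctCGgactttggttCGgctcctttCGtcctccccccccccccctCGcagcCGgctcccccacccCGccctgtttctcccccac
Dach1, chr14:98169766-98170015, minus strand: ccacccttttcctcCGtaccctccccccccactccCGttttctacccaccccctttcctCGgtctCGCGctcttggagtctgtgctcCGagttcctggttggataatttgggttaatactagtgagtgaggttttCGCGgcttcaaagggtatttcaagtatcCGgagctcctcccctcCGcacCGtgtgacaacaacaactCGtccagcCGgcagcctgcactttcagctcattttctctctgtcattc
Dach2, chrX:113297260-113297509, plus strand: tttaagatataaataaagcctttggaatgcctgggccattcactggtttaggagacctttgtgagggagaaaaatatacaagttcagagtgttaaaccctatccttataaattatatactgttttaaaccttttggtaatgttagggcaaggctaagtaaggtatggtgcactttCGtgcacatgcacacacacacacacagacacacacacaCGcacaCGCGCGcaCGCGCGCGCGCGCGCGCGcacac

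The Eya4 window held 35 CpG, more than 97.0% of the 32851 promoter windows of this length, whose median was 6. The Six2 window held 26, the Six4 window 15, the Dach2 window 14 and the Dach1 window 13, and the windows of Six5 and Eya3 held 13 and 18. All 10 entries were therefore rich in CpG relative to the median, in members with restricted levels and in the broadly detected Eya3 alike. TCAGGTT, the core of the MEF3 site that Six-family proteins bind, was searched on both strands and was found in 1 of the 10 windows, in Six4, 97 bases before the start on the opposite strand. It was present in 3.49% of all promoter windows. TATAAA, the TATA box, was found 145 and 243 bases before the start in the Dach2 window and was present in 12.4% of all windows. These matches describe letters only, and no binding was measured.

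The 4 suspensions held 5678 cells with a cell type assigned by the authors, of 6006 deposited barcodes, with no barcode shared between suspensions. They gave 16052917 to 19160116 gene UMIs (unique molecule tags, a count of captured transcripts) per suspension and medians of 10880 to 13267 per cell. Of the 16 cell types, 12 were deep, with median depths of 10898.5 to 29076 gene UMIs, and hold 4309 cells. The other 4 (Endodermal Progenitor, Foregut, Hepatocyte and Midgut; 1369 cells) had medians of only 721.5 to 1674, with median mitochondrial shares of 23.0% to 55.9%, and are described separately. The names of Hepatocyte and Midgut were not borne out by markers, since the liver list (Alb, Afp, Apoa1, Ttr) reached a summed level of only 0.05 UMIs per 10000 gene UMIs in Hepatocyte, and the list of GABAergic neurons reached 4.19 in Midgut. That list was highest in Neuroectoderm/Glia, at 5.80. Erythrocyte carried the globin list at 4639.69, and Myoblast/Cardiomyocyte had the skeletal muscle list at 2.68, with UMIs of all 8 genes. The cardiac list was not borne out in that type, at 0.194, below the 0.860 of Chondrocyte and the 1.16 of Ependymal Cell, with Nppa and Nppb at 0. Free RNA, estimated from Y-linked genes, made up 1.15% to 2.23% of the UMIs of deep cells and 12.6% to 24.6% of those of shallow cells.

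Levels below are UMIs summed over the cells of a type per 10000 gene UMIs, pooled over the suspensions, and the 95% intervals (exact Poisson for levels, exact Clopper-Pearson for shares) cover counting error only. Shares of cells with a UMI were taken after thinning each cell to 5000 gene UMIs. Since the types had been clustered on these counts, differences between types are descriptions, and a step in the order of levels is called clear only where the ranges over the 4 suspensions do not overlap. The members had between 723 UMIs in 634 cells (Six5) and 25096 UMIs in 3488 cells (Dach1). Levels of different genes are not compared, because the capture of a gene's transcripts depends on its sequence and length.

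Six2 was mostly found in cartilage, mesenchymal, epithelial and muscle types. Its highest level was in Chondrocyte, at 0.521 (0.448 to 0.602), with 0.573, 0.663, 0.243 and 0.564 in the 4 suspensions. Gut Mesenchyme/Amniotic Mesoderm followed at 0.458, with 0.444, 0.523, 0.430 and 0.430, and F1_1 was the 1 suspension of 4 in which Chondrocyte did not lead. Epithelial Cell (0.345), Mesodermal Progenitor (0.343) and Myoblast/Cardiomyocyte (0.314) came next and overlapped their neighbours. Below them lay a clear step of 7.15-fold to Erythroblast at 0.0439, and the nervous system types had 0.0252 or less. Of 76 cells of Hematoendothelial Progenitor/Endothelium none had a Six2 UMI. In Chondrocyte 15.6% of 294 cells (11.7% to 20.3%) had a Six2 UMI at 5000 gene UMIs, against 0 of 60 Erythrocyte cells, which allows a share of up to 5%.

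Six4 was spread evenly over 4 types. It was highest in Epithelial Cell, at 0.221 (0.167 to 0.286), but with 0.341, 0.227, 0.211 and 0.132 the suspensions overlapped those of Mesodermal Progenitor (0.205), Gut Mesenchyme/Amniotic Mesoderm (0.200) and Myoblast/Cardiomyocyte (0.197). A clear step separated Myoblast/Cardiomyocyte from Chondrocyte, at 0.125, so the type in which Six2 was highest was the lowest of the mesenchymal types for Six4. CNS Neuron had 0.0801, and no Six4 UMI was found in Hematoendothelial Progenitor/Endothelium or in Erythrocyte. The share of Epithelial Cell with a UMI was 8.0% of 150 cells (4.20% to 13.6%). Six5 had its highest level in Gut Mesenchyme/Amniotic Mesoderm, at 0.204 (0.176 to 0.236), with 0.201, 0.208, 0.208 and 0.203. Chondrocyte (0.188), Ependymal Cell (0.164), Mesodermal Progenitor (0.16) and Epithelial Cell (0.132) overlapped their neighbours, and only 1 suspension of 4 had Gut Mesenchyme/Amniotic Mesoderm on top. Six5 thus reached Ependymal Cell and Neuronal Progenitor (0.118), where Six2 was near 0, while CNS Neuron had only 0.00981.

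The 4 Eya genes had 4 different distributions. Eya1 was highest in Epithelial Cell, at 1.47 (1.32 to 1.62), with 1.41, 1.87, 1.39 and 1.25, which lay above every other type in all 4 suspensions. Mesodermal Progenitor (0.969, 0.640, 0.997 and 0.672) and Myoblast/Cardiomyocyte (0.747, 0.769, 0.992 and 0.699) followed and overlapped each other. Eya1 also had a level of 0.487 in CNS Neuron, and 29.3% of 150 Epithelial Cell cells (22.2% to 37.3%) had a UMI. Eya4 shared the same leading types in another order. It was highest in Gut Mesenchyme/Amniotic Mesoderm, at 2.27 (2.17 to 2.37), with 2.39, 2.43, 2.11 and 2.0, and Epithelial Cell (1.83), Mesodermal Progenitor (1.69) and Myoblast/Cardiomyocyte (1.5) followed with overlapping ranges. A clear step led to Chondrocyte at 0.663, and CNS Neuron had 0.177. Gut Mesenchyme/Amniotic Mesoderm had an Eya4 UMI in 40.7% of 668 cells (37.0% to 44.6%).

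Eya2 was highest in the type named CNS Neuron. CNS Neuron had a level of 3.31 (3.17 to 3.46), with 3.84, 3.16, 3.1 and 3.18, and held 55.6% of the Eya2 UMIs of all deep cells. Epithelial Cell followed at 1.01, where F0_8 (1.97) was high beside 0.942, 0.787 and 0.626, and both steps below these types were clear. Myoblast/Cardiomyocyte was next at 0.377. A UMI of Eya2 was found in 45.4% of 515 CNS Neuron cells (41.1% to 49.8%). Eya3 was nearly even over the embryo, from 0.545 in Mesodermal Progenitor (0.532, 0.624, 0.535 and 0.515) down to 0.373 in Hematoendothelial Progenitor/Endothelium, and every neighbour in that order overlapped the next. Erythrocyte stood lowest at 0.103, with a range of 0.0326 to 0.162.

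Both Dach genes were highest in CNS Neuron, the type that held the most Eya2 as well. Dach1 reached 10.8 (10.6 to 11.1) there, with 11.15, 10.66, 10.54 and 10.98, and 84.1% of 515 cells (80.6% to 87.1%) had a UMI at 5000 gene UMIs. After a clear step, Neuronal Progenitor (6.08), Neuroectoderm/Glia (4.53) and Ependymal Cell (3.16) came next and overlapped in turn. Mesodermal Progenitor (2.41), Myoblast/Cardiomyocyte (2.26), Gut Mesenchyme/Amniotic Mesoderm (2.25) and Epithelial Cell (1.81) formed a further group above a clear step to Chondrocyte at 0.814. No Dach1 UMI was found in the 60 thinned Erythrocyte cells. Dach2 had 2.15 (2.04 to 2.27) in CNS Neuron, with 1.64, 2.47, 2.11 and 2.28, and overlapped Epithelial Cell (1.29, 1.90, 1.71 and 0.544). The suspensions were uneven for this gene, as in Chondrocyte, with 1.33 in F0_9 beside 0.297, 0.525 and 0.506. Dach2 was low in Myoblast/Cardiomyocyte (0.267), with a clear step on either side.

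**Figure D1:**
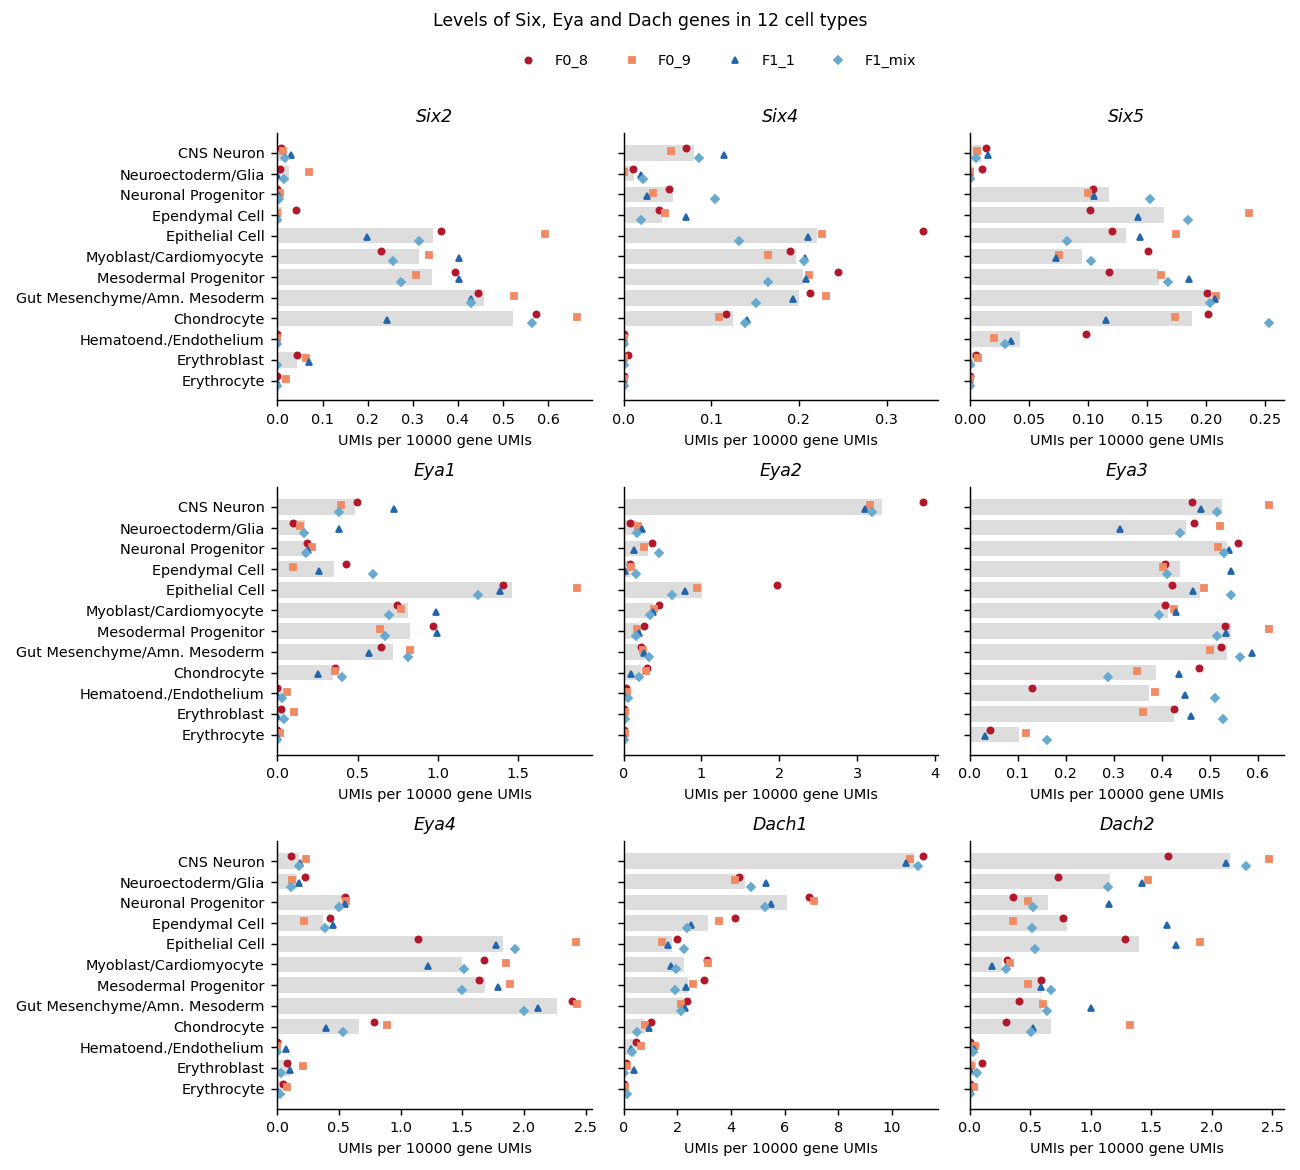
Level of each of the 9 genes in the 12 deep cell types, in UMIs per 10000 gene UMIs. Bars give the level pooled over 4 suspensions and points the suspensions. Dach1 and Eya2 stand highest in CNS Neuron, at 10.8 and 3.31, Eya4 in Gut Mesenchyme/Amniotic Mesoderm at 2.27, and Eya3 is nearly level from 0.545 to 0.373 outside Erythrocyte.

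The likeness of the patterns was measured as Pearson's r of the log2 level over the 12 deep types, each a mean of the 4 suspensions, and is a description in which all points share the same library. The levels here are per 10000 UMIs outside mitochondrial genes, with 0.05 added. Six4 and Eya4 (r = 0.95), Six4 and Eya1 (0.94), Eya1 and Eya4 (0.90) and Six2 and Six4 (0.85) were the closest pairs across the Six-family and Eya genes. Dach1 and Dach2 had r = 0.88. At the other end, Six2 and Dach1 had 0.09 and Eya2 and Six5 0.22, so the 9 genes did not follow 1 common pattern.

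Of 12095 genes compared in the same way, those closest to Six2 were Edn3 (0.98), which encodes endothelin 3, Mgp (0.97), an inhibitor of calcification, and Smoc2 (0.96), a matrix protein. Six4 was closest to Fbxo17 (0.96), Chst9 (0.95) and Wnt5a (0.95), a Wnt ligand of outgrowing tissue, and Six5 to Gulp1, Tcf7l1 (a Wnt pathway repressor) and Gja1 (connexin 43), each at 0.98. For Eya1, Cpm (0.97), a carboxypeptidase, and Cdc14b (0.96), a phosphatase, were among the closest. Eya2 had no gene above 0.89, with Cyb5d1 (0.89), Mreg (0.88) and Cbfa2t2 (0.88), so its pattern was the least shared. Eya3 was closest to Fnbp4, Ppp4r3b and Tlk2, each at 0.99. Eya4 was closest to Hs6st2 (0.97), an enzyme of heparan sulfate, 9030624G23Rik (0.96) and Adamts19 (0.96). Dach1 was closest to Hsf2 (0.99), Taf13 (0.98) and Fzd3 (0.97), a Frizzled receptor, and Dach2 to Nek3, Pomc and Arhgap44, each at 0.97.

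Within the mesenchymal types (Mesodermal Progenitor, Gut Mesenchyme/Amniotic Mesoderm and Chondrocyte), Six2 and Eya UMIs often occurred in the same cells. At 5000 gene UMIs, 213 cells had a Six2 UMI and 1244 did not. An Eya1 UMI was present in 35.2% of the first and 14.1% of the second, with 38.8% against 15.0% in F0_8, 42.9% against 11.7% in F0_9, 33.3% against 13.9% in F1_1 and 22.9% against 15.6% in F1_mix. The share was thus higher beside Six2 in 4 of 4 suspensions. Eya4 (48.8% against 31.6%) and Eya2 (15.5% against 7.9%) were also higher in 4 of 4 suspensions. Dach1 (38.0% against 37.9%), Eya3 (21.1% against 21.9%) and Dach2 (13.1% against 14.9%) had nearly equal shares, and Six4 (8.9% against 7.6%) and Six5 (10.3% against 9.16%) were higher beside Six2 in 2 of 4 suspensions. The 3 types were pooled for these shares, and no test was made. Eya1 and Eya4 also went together, with an Eya4 UMI in 53.0% of the 251 cells with Eya1 and 30.2% of those without. In Epithelial Cell, 44 cells had an Eya1 UMI, and 54.5% of them had Eya4 and 25.0% Six2, against 19.8% and 6.6% of the rest. In CNS Neuron, where both genes were highest, Dach1 was present in 87.2% of cells with Eya2 and 81.5% of those without.

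**Figure D2:**
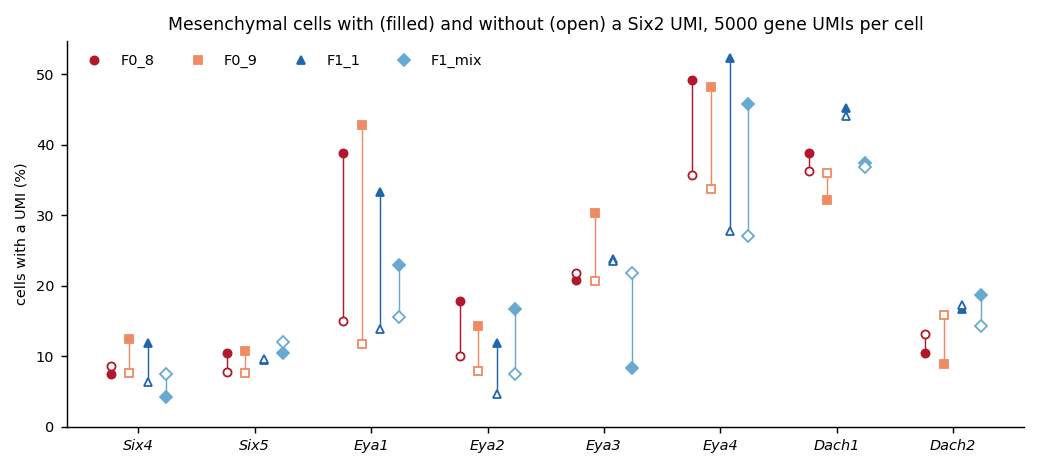
Share of mesenchymal cells (percent, each cell thinned to 5000 gene UMIs) with a UMI of each member, for the 213 cells with and the 1244 cells without a Six2 UMI. Eya1 (35.2% against 14.1%) and Eya4 (48.8% against 31.6%) differ most, and Dach1 is near 38% in both.

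The annotated types mix lineages and body regions, and the members were therefore compared inside types with marker lists that hold no member. A cell was placed in a class when it had at least 2 UMIs of 1 list and fewer than 0.25 times as many of the other. UMIs were summed per suspension and class and tested with edgeR's quasi-likelihood test with the suspension as a block, and p-values were adjusted over all genes tested. No suspension was repeated. The block removes differences between suspensions, so p-values measure how far the difference between classes varies from suspension to suspension.

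The first such comparison was between body regions of the mesenchyme. Facial markers that included Alx1, Lhx8, Barx1, Lhx6, Dlx6 and Dlx3 defined 309 cranial cells and Tbx4, Tbx5, Lmx1b and distal Hox genes defined 421 limb cells, of 1466 cells, with median depths of 14822 and 14074 gene UMIs. All 9 members passed the filter on low counts, and 5 were called at an adjusted p under 0.05, 3 of them higher in cranial cells, where 2.46% of 10007 genes were, and 2 higher in limb cells, where 2.72% were. Six2, Eya1 and Eya4 were the cranial members and Dach1 and Dach2 the limb members. The filter asks for a minimum level in as many sums as the smaller class has, and a gene can pass it through 1 class alone. Six2 reached the minimum in 4 of 4 cranial and 3 of 4 limb sums and so passed only through the cranial class. Its call is therefore no support for a difference, and the count of cranial calls, which includes it, is a description. The other 4 called members reached the minimum in all sums of both classes.

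Six2 had levels of 0.985, 1.22, 0.646 and 0.777 in cranial cells and 0.193, 0.159, 0.031 and 0.102 in limb cells. Every cranial value lay above every limb value, with a log2 difference of 2.83 (SE 0.19), as a description. Eya1 behaved alike, with 1.46, 1.6, 1.42 and 1.20 against 0.503, 0.318, 0.217 and 0.109 (log2 difference 2.28, SE 0.21, adjusted p = 3.55e-05). Eya4 differed less, with 2.70, 3.37, 2.26 and 1.89 against 1.79, 1.84, 1.47 and 1.09 (0.74, SE 0.08, adjusted p = 0.000172), and its ranges did not overlap. Its call was lost when the suspension was not used as a block (adjusted p = 0.0582).

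Both Dach genes pointed to the limb. Dach1 had 1.37, 1.36, 2.42 and 1.59 in cranial cells and 4.05, 3.54, 2.94 and 2.36 in limb cells, so the limb class was higher in 4 of 4 suspensions, although F1_1 had its cranial value above the limb value of F1_mix. The log2 difference was -0.93 (SE 0.17, adjusted p = 0.0066). Dach2 had 0.412, 0.512, 0.527 and 0.566 against 0.666, 0.899, 0.672 and 1.04, without overlap (-0.69, SE 0.12, adjusted p = 0.00429). With DESeq2 in place of edgeR neither Dach gene was called (adjusted p = 0.0549 for Dach1 and 0.139 for Dach2). The log2 differences of the other 4 members were -0.05 for Six4, 0.25 for Six5, 0.58 for Eya2 and 0.33 for Eya3, with adjusted p = 0.952, 0.657, 0.295 and 0.16.

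Outside these regions, 102 cells carried sclerotome markers (Pax1, Pax9, Nkx3-2 and Uncx) and 163 urogenital markers (Wt1, Osr1, Gdnf, Lhx1 and Tbx18) when 4 lists were used together. The sclerotome class had a Six2 level of 0.106 and an Eya4 level of 0.599 but a Six5 level of 0.273. The urogenital class had 0.328 for Six2, 1.57 for Eya4, 0.960 for Dach1 and 0.779 for Dach2. Six2 and Eya1, both known from the embryonic kidney, were thus lower in the urogenital class (Eya1 0.468) than in cranial cells, as a description without a test. Over whole types, the urogenital list was highest in Neuroectoderm/Glia (2.62) and the sclerotome list in CNS Neuron (2.36). The class names are therefore those of the lists, and an origin of the 163 cells in the kidney region was not shown.

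Among the Pax factors, Pax3, a neural crest and muscle factor, had levels of 1.13 in cranial and 0.0477 in limb cells, and Pax7, its close relative, had 129 UMIs in cranial and 3 in limb cells. Both passed the filter only through the cranial class, so these values are a description. None of the 2 Ski genes or the 6 Groucho and other cofactor genes tested was called. Sall1, a target and a zinc finger gene of limb and kidney, had a level of 0.262 in limb and 0.0185 in cranial cells and passed the filter only through the limb class, so that this is a description as well.

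In Myoblast/Cardiomyocyte, skeletal markers (Myf5, Myod1, Myog, Myf6, Chrna1, Msc, Mymk and Lbx1) defined 99 cells of 644, the cardiac list (Myl7, Nppa, Nppb, Nkx2-5, Myh6, Gata4, Gata6 and Smpx) 24 cells, and 521 cells fell in neither class. The 24 cells are called cardiac-list cells and not cardiac, because Gata6 (77 UMIs) and Gata4 (56 UMIs), which other mesodermal cells also use, led the list in them. Of the other heart genes, Myl7 had 9 UMIs, Nkx2-5 12, and Myh6, Nppa and Nppb 0, and 10 of the 24 cells had only 2 or 3 UMIs of the list. Median depths were 22729 and 20492 gene UMIs. F0_9 had no cardiac-list cell, so that its sum was dropped, and the other suspensions had 4, 11 and 9. Of 7 members that passed the filter, 4 were called, all higher in skeletal cells, as were 3.74% of 6650 genes. These were Eya1, Eya2, Eya4 and Dach1. Eya1 and Eya2 passed the filter only through the skeletal class, since Eya1 reached its minimum in 2 of 3 cardiac-list sums and Eya2 in 0. Their calls are therefore no support for a difference, and the count of calls is a description.

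Eya4 had levels of 3.51, 4.03, 1.93 and 4.16 in skeletal cells and 0.958, 0.271 and 0.301 in the cardiac-list cells of F0_8, F1_1 and F1_mix. The classes did not overlap, with a log2 difference of 3.0 (SE 0.30, adjusted p = 3.17e-05). Eya1 had 0.665, 1.57, 2.08 and 1.76 against 0.274, 0.496 and 0.050 (log2 difference 2.69, SE 0.43). Eya2 had 0.924, 1.24, 0.989 and 1.05 against 0, 0.135 and 0, with 238 UMIs in skeletal and 3 in cardiac-list cells, a ratio of levels of 17.1 (5.80 to 83.7, counting error only). Dach1 had 2.20, 1.66, 2.62 and 1.27 against 0.274, 0.451 and 0.401, again without overlap (2.36, SE 0.30, adjusted p = 0.0002).

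Set against the 521 cells of neither class, a comparison chosen after seeing the data, Eya1 (log2 difference 1.28, adjusted p = 0.00137), Eya2 (2.26, 1.26e-06) and Eya4 (1.70, 1.10e-05) were again higher in skeletal cells, as were 9.48% of 8825 genes, and Dach1 was not called (-0.37, adjusted p = 0.271). Cells of neither class had a pooled Dach1 level of 2.44, above the 1.90 of skeletal cells, but F1_1 went the other way (1.70 against 2.62). Whether Dach1 differs from the 3 Eya genes in this comparison was not tested. Against the cardiac-list cells, Six2 (log2 difference 0.45, adjusted p = 0.862), Eya3 (0.90, 0.278) and Dach2 (-0.83, 0.627) were not called. Six4, known from muscle, did not pass the filter in that comparison and had 0.222, 0.234, 0.243 and 0.175 in skeletal cells, against 0, 0.090 and 0.15 in cardiac-list cells. Six5 had a level of 0.048 in skeletal cells (11 UMIs) and 0.142 in cardiac-list cells (7 UMIs).

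Pax3 had 303 UMIs in skeletal and 2 in cardiac-list cells, and Pax7 142 and 0. Sobp, a cofactor of Six-family proteins, had a level of 1.28 against 0.263. These 3 genes passed the filter only through the skeletal class, so their values are a description. Myog, a target of Six-family proteins, was 1 of the genes that defined the class, and Skil and Ski were not called.

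In CNS Neuron and Neuronal Progenitor, markers of peripheral sensory neurons that included Avil, Prph, Sncg and Tlx2 defined 44 cells and those of GABAergic neurons (Gad1, Gad2, Slc32a1 and Lhx5) 260 cells of 1129. The sensory class was deeper, with a median of 19612.5 gene UMIs against 10838. Over whole types, the summed sensory list was higher in Neuroectoderm/Glia (1.78) than in CNS Neuron (1.02), with overlapping ranges over the suspensions. Neuroectoderm/Glia was not part of this comparison. Of 5 members that passed the filter, 1 was called, Eya2, higher in sensory cells, as were 10.2% of 6401 genes. Eya2 had levels of 7.26, 5.85, 6.49 and 5.85 in sensory cells and 0.765, 0.686, 1.22 and 1.31 in GABAergic cells. All sensory values were far above all GABAergic values (log2 difference 2.85, SE 0.20, adjusted p = 4.14e-06), and 88.6% of sensory cells and 20.6% of GABAergic cells had a UMI at 5000 gene UMIs.

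Six4 had too few UMIs for the filter, with 0.239, 0.244, 0.844 and 0.376 in sensory cells and 0.036, 0.037, 0.034 and 0.075 in GABAergic cells. These ranges did not overlap, but they rest on 34 UMIs in sensory and 14 in GABAergic cells, and the difference is a description without a test. The Dach genes, in which CNS Neuron was highest, differed less between the classes, with a log2 difference of 0.38 for Dach1 (adjusted p = 0.0514) and -0.91 for Dach2 (adjusted p = 0.0640). Eya1 (0.53, adjusted p = 0.385) and Eya3 (-0.33, adjusted p = 0.497) were not called.

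Six3, a forebrain gene, had 0 UMIs in sensory and 181 in GABAergic cells. Levels in GABAergic and sensory cells were 5.29 and 0.0112 for Pax2, 0.666 and 0.0337 for Pax8, and 0.435 and 0.0225 for Pax6. These 4 genes passed the filter only through the GABAergic class, so their values are a description. Of the Ski genes, Ski was higher in sensory cells (0.719 against 0.310, log2 difference 1.28). Tle1 (-0.86) and Sobp (-1.42), both cofactors, were lower there, and so was Ccnd1 (-1.48, adjusted p = 0.0392), a cyclin and 1 of 2 targets tested.

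**Figure D3:**
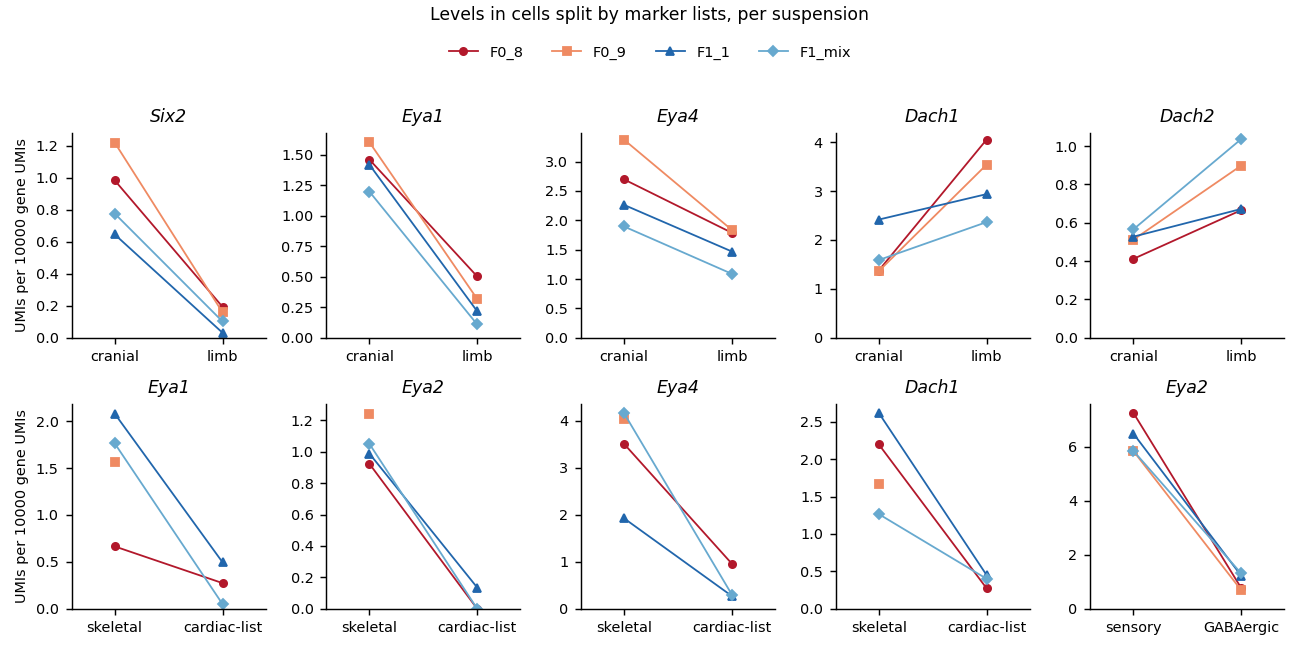
Levels of members (UMIs per 10000 gene UMIs) in marker-defined classes of cells, with a line for each of the 4 suspensions. Panels show cranial against limb mesenchyme, skeletal against cardiac-list cells (3 suspensions have both) and sensory against GABAergic neurons. Six2 falls from 0.646 to 1.22 in cranial cells to 0.031 to 0.193 in limb cells, and Eya2 from 5.85 to 7.26 in sensory neurons to 0.686 to 1.31 in GABAergic neurons.

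The founders were compared with the F1 generation within the 13 cell types that had at least 20 cells in every suspension, 4 of them shallow. Members could be tested in 86 of 117 combinations of gene and type, and 1 was called, against 0.752% of 99241 tests over all genes. At an unadjusted p under 0.05 there were 17 of 86 (19.8%), 12 of them higher in founders, beside 10.2% of all tests. The 1 call was Dach1 in Neuronal Progenitor, with 6.92 and 7.09 in the founders and 5.48 and 5.26 in the F1 suspensions. The groups did not overlap, with a log2 difference of 0.35 (SE 0.06, adjusted p = 0.0433), and 0.45% of 10668 genes were called higher in founders in this type. The call was lost with DESeq2 (adjusted p = 0.193) and without F0_8 (0.243), F0_9 (0.155) or F1_mix (0.0681).

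Dach1 also had higher values in both founders in Myoblast/Cardiomyocyte, with 3.12 and 3.15 against 1.76 and 1.94 (log2 difference 0.75, SE 0.08, adjusted p = 0.0774), where DESeq2 called it (adjusted p = 6.28e-06). In Mesodermal Progenitor it had 2.99 and 2.58 against 2.32 and 1.92 (0.39, SE 0.10, adjusted p = 0.119). It was nearly equal in CNS Neuron (0.00, SE 0.06, adjusted p = 0.989) and in Gut Mesenchyme/Amniotic Mesoderm (0.03, adjusted p = 0.942). Eya4 in Chondrocyte had 0.786 and 0.891 against 0.397 and 0.529 (0.84, SE 0.21, adjusted p = 0.0828). Whether the difference between generations varies between cell types was not tested.

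Limb markers had higher summed levels in the founders in several of these types. The summed level of the 8 limb markers, all of which had UMIs, was 2.88 and 2.85 against 1.29 and 2.09 in Myoblast/Cardiomyocyte and 3.44 and 3.48 against 1.82 and 2.69 in Mesodermal Progenitor, and 2.68 and 2.97 against 0.810 and 1.22 in Gut Mesenchyme/Amniotic Mesoderm, where Dach1 was nearly equal. In Neuronal Progenitor the list was low, at 0.224 and 0.295 against 0.215 and 0.189. Limb-marker cells made up 34.9% and 35.8% of mesenchymal cells in the founders and 18.9% and 21.2% in the F1 suspensions. Within limb-marker cells, Dach1 had 4.05 and 3.54 against 2.94 and 2.36, and within cranial-marker cells 1.37 and 1.36 against 2.42 and 1.59. The skeletal list in Myoblast/Cardiomyocyte was also uneven, at 7.56 and 2.97 against 1.35 and 1.79, and the globin list was 55.6 in F0_9 against 0.548 to 0.614 in the other suspensions. The part of these differences in the Dach1 values was not tested. Of the related genes, 2 calls were made, both in targets, with Ccnd1 lower in founders in CNS Neuron (-0.84, adjusted p = 0.00955) and Sall1 higher in founders in Gut Mesenchyme/Amniotic Mesoderm (2.12, adjusted p = 0.0221). No Pax factor (32 tests), Ski gene (22) or cofactor (63) was called.

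**Figure D4:**
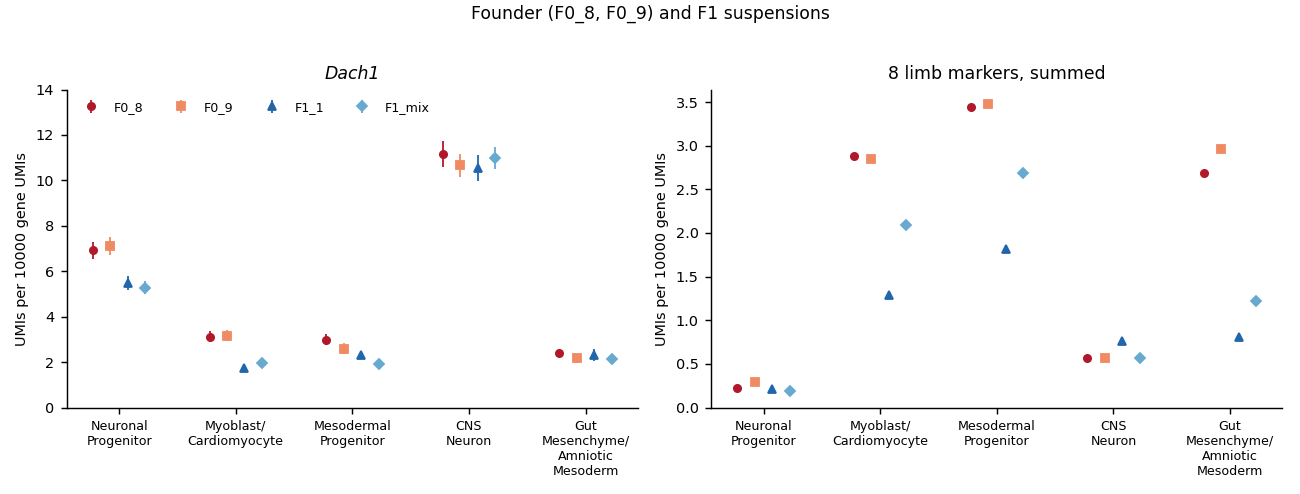
Dach1 level (left, with exact Poisson 95% intervals) and summed level of 8 limb markers (right) in UMIs per 10000 gene UMIs, by suspension, in 5 cell types. In Myoblast/Cardiomyocyte both are higher in F0_8 and F0_9, with Dach1 at 3.12 and 3.15 against 1.76 and 1.94, and in CNS Neuron Dach1 lies between 10.5 and 11.2 in all 4.

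The 4 shallow types held fewer UMIs of the members in all, and levels in them are given per 10000 UMIs outside mitochondrial genes. Dach1 was high throughout, with 21.0 in Foregut (19.5 to 21.6 over the suspensions), 17.3 in Midgut (11.3 to 22.4), 8.37 in Hepatocyte and 7.13 in Endodermal Progenitor. Eya2 was highest in Midgut, at 6.08 (5.83 to 7.18), where Eya4 was lowest, at 0.658 (0.39 to 0.94). Hepatocyte had the reverse, with Eya4 at 5.23 (3.4 to 6.79), Eya1 at 2.56 (1.33 to 4.09) and Eya2 at 0.905 (0.31 to 1.49). Eya2 and Eya4 thus differed in opposite directions between Midgut and Hepatocyte. Six2 had 14 UMIs in Hepatocyte, 1 in Midgut and 0 in the other 2 types.

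Over the 4 shallow types together, the 6 long members stood above their level in the deep types and Six2 below it. Dach1 had 12.01 in shallow and 3.53 in deep cells, a ratio of 3.4, and the ratios of Eya1, Eya2, Eya3, Eya4 and Dach2 were 3.17, 3.47, 2.81, 3.43 and 2.75. The ratios of the 3 short genes were 0.402 for Six2, 1.21 for Six4 and 1.17 for Six5. The members of 85.7 kb and more thus had ratios of at least 2.75 and those of 25.5 kb and less at most 1.21. Length and family go together here, so they cannot be told apart in 9 genes. Droplets outside the called cells had a like pattern, since Dach1 had 11.98 in 53557 droplets of more than 100 and up to 300 gene UMIs and 3.35 in 1435345 droplets of 1 to 100, Eya4 had 2.63 and 1.02, and Six2 0.153 and 0.207. The counts include reads that fall in introns by default in the counting software, and whether intronic reads carry these ratios was not tested.

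**Figure D5:**
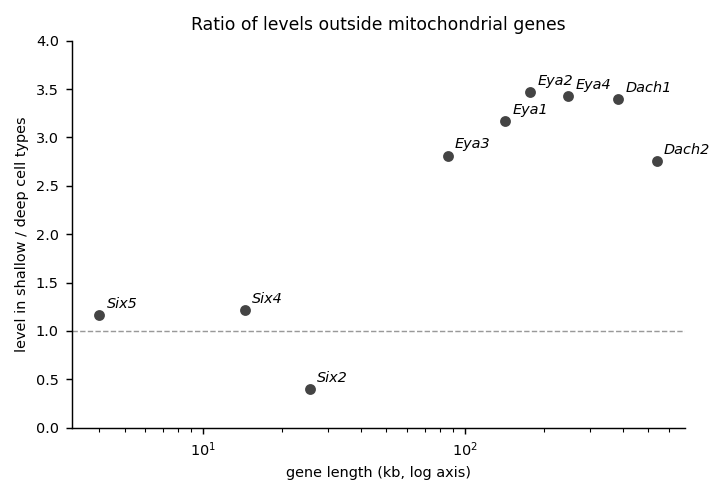
Ratio of the level in the 4 shallow types to that in the 12 deep types (UMIs outside mitochondrial genes) against gene length in kb on a log axis, with 1 point per gene. The 6 members of 85.7 kb or more lie between 2.75 and 3.47, and Six2, Six4 and Six5 between 0.402 and 1.21.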

How the data were processed

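Cells of 4 suspensions of mouse embryos (2 founder and 2 F1 suspensions, grouped from the series description) were measured in 1 3′ droplet library (chemistry 3.1) with an oligo library. The values used are UMI counts per gene and cell that the authors deposited uncorrected, made with Cell Ranger against GRCm38 (mm10) with EGFP added. Cell Ranger, Seurat and mm10 are named in the submitters' processing notes. The cell table deposited by the authors gave suspension and cell type as other, non-numeric values. It lists only cells that DoubletFinder called single, and no further caller was run. Mitochondrial shares given here are over gene UMIs, whereas the deposited percentage, to which the study's limit of 5% refers, is over gene and oligo counts together. The authors name SoupX and RECODE, and neither was applied here.

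The members, marker lists and related lists were chosen with earlier results of these data known. Counts were summed per suspension and cell type or marker class, filtered with filterByExpr, normalized with TMM and tested with edgeR 4.0.16 (quasi-likelihood, Benjamini-Hochberg over all genes of a fit, threshold 0.05) in R 4.3.3. DESeq2 1.42.0 was the alternative tool. The edgeR fit recovered known changes in simulated data, and the DESeq2 fit was not tried on such data. Founders were compared in types with 20 or more cells per suspension. Thinning drew 5000 gene UMIs per cell. Types whose median depth, times 3, stayed below the median over all cells were called shallow. Limits for a count of 0 correspond to 3 counts. The text names the 9 members, the 3 genes with the most similar pattern among genes with 200 or more UMIs, and of each related list up to 4 called genes with the largest log2 difference. Python 3.11.15, numpy 2.4.6, pandas 2.3.3, scipy 1.17.1 and matplotlib 3.10.9 were used. Alternatives were other size factors, no filter, DESeq2, no suspension block, other class thresholds, thinning depths and leaving out each suspension. The oligo library and the DNA barcode reads were not used. A few genes of these lists are not reported here.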

Additional observations from a re-analysis of the deposited data

Results flagged for a closer look

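Among 79 combinations of member, deep cell type and 4 suspensions with at least 20 UMIs, 5 had 1 suspension far from the other 3 by Dixon's criterion (the gap to the nearest of the others over the whole range). Chance sets apart about 1 group in 20, which is close to this number. Six2 in Gut Mesenchyme/Amniotic Mesoderm was highest in F0_9, at 0.523 UMIs per 10000 gene UMIs, beside 0.430 to 0.444 in the other suspensions. Eya2 in CNS Neuron was highest in F0_8, at 3.84 beside 3.1 to 3.18. Eya4 in Neuronal Progenitor was lowest in F1_mix, at 0.498 beside 0.549 to 0.557. Six5 in Neuronal Progenitor was highest in F1_mix, at 0.153 beside 0.100 to 0.105, and rested on 38 UMIs there. Eya3 in Ependymal Cell was highest in F1_1, at 0.544 beside 0.402 to 0.410, with 23 UMIs.

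The difference of Six4 between cranial-marker and limb-marker cells was opposite in the generations. It was -0.00792 UMIs per 10000 in F0_8 and -0.0612 in F0_9, below 0, and above 0 in both F1 suspensions, at most 0.0302. The difference between the generations was not tested, and Six4 had 241 UMIs in these cells in all.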

How the results depend on the processing

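The 11 calls of members in the report kept their direction under every alternative run, except Dach1 of skeletal cells when set against cells of neither class (chosen after seeing the data; -0.37). Of the values of single members under alternatives, 240 kept direction and side of the threshold, 15 became significant, 7 lost significance and 3 turned, the comparison with cells of neither class not counted. Those that turned had no call and are Six4 between cranial and limb cells (0.0866 with classes set at 5 marker UMIs and -0.116 to 0.0533 leaving out 1 suspension each) and Six2 between skeletal and cardiac-list cells (-0.72 to 1.24, lowest without F1_mix).

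Counts of calls over all genes depended more on the setting. Founders against F1 gave 746 calls summed over the 13 cell types, a gene called in several types being counted in each, 3154 with no filter, 429 with DESeq2 and 511 to 1585 leaving out 1 suspension (1585 without F0_9, 1422 without F1_1 and 1498 without F1_mix), and 1 member call became 7 with no filter and 2 to 6 leaving out 1 suspension each. Skeletal against cardiac-list cells gave 415, 728 with no filter, 231 with DESeq2 and 243 to 464 leaving out 1 suspension (243 without F1_1). Cranial against limb gave 518, 935 with no filter, 272 with DESeq2 and 331 without the suspension block, and 5 member calls became 3 with DESeq2. Sensory against GABAergic gave 1224, 1839 with no filter, 734 with DESeq2, 754 to 1290 leaving out 1 suspension (784 without F0_9 and 754 without F1_mix) and 767 with Neuroectoderm/Glia added (chosen after seeing the data). Its 1 member call became 4 with no filter, 3 without the block, 2 with classes at 5 marker UMIs and 1 to 3 leaving out 1 suspension. No paired analysis was possible because the founder and F1 suspensions share no replicate number.

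Shares of cells with a UMI depend on depth. In the cell type where each gene was highest, they were, unthinned and at 2000 gene UMIs, 23.0% and 8.11% for Six2, 29.8% and 3.97% for Six4, 22.8% and 4.31% for Six5, 45.7% and 15.9% for Eya1, 54.5% and 31.6% for Eya2, 61.1% and 9.48% for Eya3, 55.9% and 26.2% for Eya4, 89.8% and 67.8% for Dach1, and 41.9% and 19.8% for Dach2. The Six5 level in Gut Mesenchyme/Amniotic Mesoderm was 0.210 outside mitochondrial genes. Where leaving out a suspension left 1 in a generation, that sample was assumed to vary like the other groups. Restricting founder tests to cells under 5% mitochondrial UMIs was possible in 9 types.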
